A study of Homo sapiens with 4 samples.

Results

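The intervals described here are 470 autosomal stretches of chromatin that were markedly more accessible in TMD8 cells after silencing of IRF4. They were chosen by their own counts. An interval was taken when it held at least 4 CPM (the interval's count divided by the library's total and multiplied by 1000000) in both shIRF4 libraries, and when the lower shIRF4 value was more than 1.7 times the higher control value. Of 73135 intervals in the series, 71357 lay on autosomes, 48135 of these reached the CPM minimum in both shIRF4 libraries, and the 470 were 0.976% of those. The mirrored rule, with the groups exchanged, took 1913 of 48956 intervals, or 3.91%, and these are called strongly closed below. Because the rule used the contrast between the groups, the changes of the 470 intervals are given as a description with no test.

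TMD8 is an established human line of activated B cell-like diffuse large B-cell lymphoma. The study compared 2 libraries of TMD8 cells given scrambled shRNA, the controls, with 2 libraries of TMD8 cells given shRNA against IRF4, named shIRF4. The assay, ATAC-seq, tags DNA that a transposase can reach in intact nuclei, so counts report how exposed the chromatin is. The labels give no time after silencing, do not say how many hairpins were used, and do not say whether replicates came from separate cultures, so p-values measure only the spread between these libraries. The library names of the silenced samples read siIRF4 where the titles read shIRF4. The files hold no RNA or protein values, so the depth of the IRF4 knockdown was not measured here, and a single line limits what the libraries stand for.

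IRF4 is a transcription factor of lymphocytes that B cells need for activation and for becoming plasma cells, and activated B cell-like lymphomas depend on it. It binds DNA weakly alone. It pairs with ETS factors such as PU.1 and Spi-B at ETS-IRF composite elements, and with BATF and JUN at AP-1 elements that lie beside a GAAA sequence, while interferon-stimulated response elements are shared by many members of the IRF family. Accessible sites far from gene starts are often enhancers, and accessible sites at gene starts are promoters.

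The few members that lay over an annotated start are shown first, because only there could sequence of the files' build be read. Of the promoter windows in the RefSeq table for GRCh38.p14 (250 bases before to 50 after a start, 33558 windows, which cover part of the coding genes), 16 overlapped a member by at least 50 bases. They include starts of IFIT3, IFI16 and MX1, which are interferon-induced antiviral or sensor genes, and of IL10, a cytokine that restrains inflammation. The 250 bases before 5 of these starts follow, 5′ to 3′ on the gene's strand, with matches to the interferon-stimulated response element GAAANNGAA or the ETS-IRF composite GGAANNGAA, on either strand, in capitals.
IFIT3, chr10:89327747-89327996, plus strand: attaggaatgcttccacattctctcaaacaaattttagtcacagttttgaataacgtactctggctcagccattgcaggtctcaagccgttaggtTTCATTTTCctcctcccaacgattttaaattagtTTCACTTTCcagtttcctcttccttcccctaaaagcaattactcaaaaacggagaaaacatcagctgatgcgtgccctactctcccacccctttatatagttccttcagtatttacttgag
MX1, chr21:41431800-41432049, plus strand: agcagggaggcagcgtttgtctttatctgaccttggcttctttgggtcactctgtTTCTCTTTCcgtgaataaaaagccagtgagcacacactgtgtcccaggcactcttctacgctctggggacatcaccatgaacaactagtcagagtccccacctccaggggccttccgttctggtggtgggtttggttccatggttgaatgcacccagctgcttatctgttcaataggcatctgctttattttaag
IFI16, chr1:159009657-159009906, plus strand: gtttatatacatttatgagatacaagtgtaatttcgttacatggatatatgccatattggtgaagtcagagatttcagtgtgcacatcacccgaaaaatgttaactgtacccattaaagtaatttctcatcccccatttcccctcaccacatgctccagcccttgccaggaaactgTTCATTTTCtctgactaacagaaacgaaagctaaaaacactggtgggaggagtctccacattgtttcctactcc
LINC01812, chr2:67825563-67825812, minus strand: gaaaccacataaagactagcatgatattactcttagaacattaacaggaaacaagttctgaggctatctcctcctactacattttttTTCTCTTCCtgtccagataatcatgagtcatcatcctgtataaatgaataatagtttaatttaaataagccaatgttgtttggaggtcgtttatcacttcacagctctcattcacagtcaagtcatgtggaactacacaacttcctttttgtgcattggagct
IL10, chr1:206772495-206772744, minus strand: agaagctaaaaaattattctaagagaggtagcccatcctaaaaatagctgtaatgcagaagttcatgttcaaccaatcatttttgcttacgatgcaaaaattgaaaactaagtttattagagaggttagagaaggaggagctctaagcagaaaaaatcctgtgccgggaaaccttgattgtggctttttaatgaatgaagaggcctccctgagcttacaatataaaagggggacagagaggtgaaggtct

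The IFIT3 sequence held 2 response element matches on the minus strand, TTCATTTTC from 155 to 147 bases before the start and TTCACTTTC from 121 to 113 bases before it. MX1 held TTCTCTTTC, from 195 to 187 bases before the start, and IFI16 held TTCATTTTC, from 74 to 66 bases before it. LINC01812, a long noncoding RNA gene, held the ETS-IRF match TTCTCTTCC, from 163 to 155 bases before its start. The IL10 sequence held neither, and a second IFI16 start within a member, upstream of the first, held neither as well. In all, 3 of the 16 windows (18.8%) held GAAANNGAA, against 8.09% of all 33558 windows and 5.97% of the 15381 windows over autosomal intervals that reached the CPM minimum. The composite GGAANNGAA was in 1 of 16 windows (6.25%), against 7.78% of all windows. With 16 windows these shares are descriptions, and a match is not a bound site.

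Another 11 motifs were searched on both strands in the same windows. RUNX, TGTGGTTT, was found in 4 of 16, against 1.53% of all windows and 1.03% of those over CPM-filtered intervals. Those 4 windows belong to LINC01812, CEP85L, IL10 and LZTFL1, and the IL10 match lies after the start. KLF/SP, GGGCGGGG, a motif of CpG-rich promoters, was found in 2 of 16 (12.5%), against 22.8% and 38.1%. AP-1, TGANTCA, was found in 2 (12.5%), against 7.68% and 4.10%, and AP-1 with GAAA within 10 bases, which overlaps the former, in 1 (6.25%), against 2.00% and 0.780%. The E-box CAGCTG was in 4, a motif held by 18.0% of all windows, and the octamer ATGCAAAT in 1, against 1.75%. The member covers only 60 of the 300 bases of that window, and the octamer match lies outside the member. The letters of PU.1-type ETS (GAGGAAGT), NF-kB (GGGANTTTC), EBF (CCCNNGGGA), CTCF (CAGGGGGCG) and MEF2 (CTATTTATA) were in none of the 16 windows, and in 2.58%, 1.28%, 8.90%, 2.49% and 0.390% of all windows.

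The 4 libraries held 12152153 and 13609123 counts in the controls and 17954924 and 9112860 in the shIRF4 group, so shIRF4 replicate 2 was the shallowest. The scale factors by trimmed mean of M-values (TMM) lay between 0.981 and 1.03. Across all 73028 tested intervals, edgeR's quasi-likelihood test called 5301 higher in shIRF4 (7.26%) and 11338 lower (15.5%) at an adjusted p under 0.05. All 470 members were tested and all 470 were called higher, beside the 7.26%, which the choice by the same counts makes uninformative. DESeq2 called 356 of them. Of 8 B cell markers, MS4A1, CD79A, CD79B, PAX5, EBF1, CD22 and BLK among them, 7 had an accessible interval at a gene end, with control means from 12.7 to 108 CPM. Of 6 NK cell markers none had one, and of 10 T cell markers, 9 myeloid, 6 dendritic and 7 epithelial or fibroblast markers, 5, 4, 2 and 3 had one.

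Most members were weak sites in control cells. The control mean of the 470 had a median of 3.21 CPM, with quartiles of 2.36 and 4.75 and a range from 1.07 to 33.2 CPM. In 307 members (65.3%) it was under 4 CPM, against 6.44% of all autosomal intervals that reached the CPM minimum, and in 29 it was over 10 CPM. The shIRF4 mean had a median of 7.29 CPM, with quartiles of 5.34 and 10.7 and a maximum of 76.6 CPM. None of the members was without counts in a control library: the lowest counts were 10 and 15 in the controls and 72 and 37 in the shIRF4 libraries, and the medians were 38, 43, 138 and 64.

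Per kilobase of interval, the members went from a median of 6.79 CPM in the controls to 15.5 CPM after silencing. All autosomal intervals that reached the CPM minimum had medians of 13.5 and 13.8 CPM per kb. The members thus started below the usual density of accessible intervals and ended near it. In a bulk assay, more cells with an accessible site and more access per cell cannot be told apart. A low control level is in part set by the rule, which asks for a ratio, so it is not evidence of its own.

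**Figure D1:**
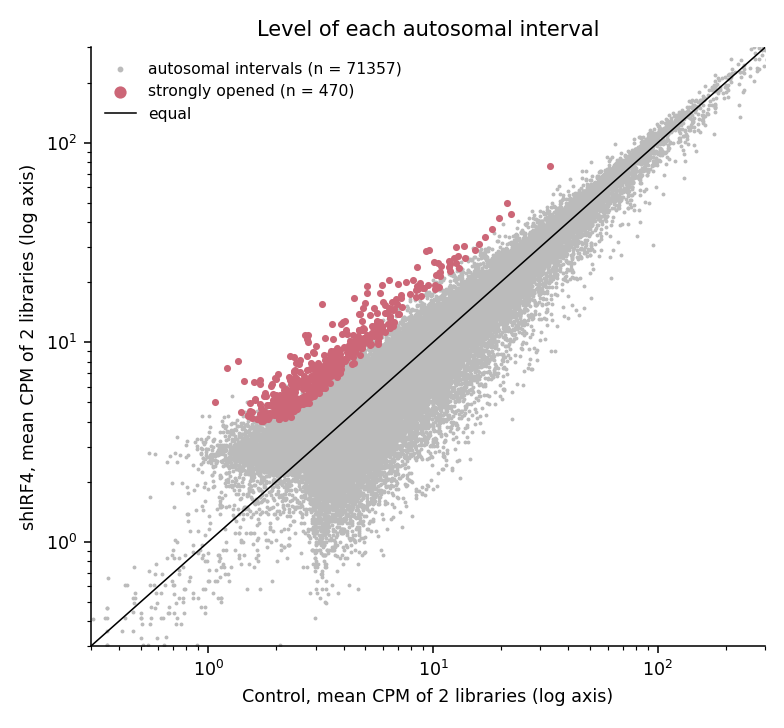
Mean CPM of the 2 shIRF4 libraries (vertical, log axis) against the mean CPM of the 2 control libraries (horizontal, log axis) for autosomal intervals, with the 470 members in red. The axes run from 0.3 to 300 CPM and leave out 112 intervals; the members form a band above the line of equal levels, with control means between 1.07 and 33.2 CPM.

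The size of the difference was moderate in most members. The shIRF4 mean over the control mean had a median of 2.20 and ran from 1.72 to 6.13. The stricter ratio of the rule, the lower shIRF4 over the higher control library, had a median of 1.91, was above 2 in 182 members and above 3 in 19, and reached 4.92. On the log2 scale of the fit the members lay between 0.73 and 2.61, with a median of 1.10. The shIRF4 replicate 1 was the higher of its pair in 341 of 470 members, with a median ratio of replicate 1 to replicate 2 of 1.07, and control replicate 1 was the higher of its pair in 210. Members just inside the ratio threshold lay near ATP2B1, TCF12 and ARPP21, and intervals just outside it near PRPF6, SPECC1L and CD58, all at 1.7 when rounded. Just inside the CPM minimum, at 4.01 CPM in the lower library, lay intervals at TRANK1, IFNAR2 and HLA-C, and just outside, at 3.95 CPM, those at CDK14, TSPAN5 and HDAC9. A further 394 autosomal intervals passed the ratio and missed the CPM minimum.

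The member with the highest ratio lay at chr3:189516013-189516472, 80504 bp outside TP63, a p53-family factor of epithelia. It held 1.32 and 1.10 CPM in the controls and 8.35 and 6.47 CPM after silencing, a log2 difference of 2.61 ± 0.24 (SE). Both shIRF4 libraries were several fold above both controls. The next lay at chr6:87997701-87998279, 48911 bp from SPACA1, an acrosome gene, with 1.32 and 1.40 CPM in the controls and 9.86 and 6.25 CPM in shIRF4. The third, at chr3:46110763-46111506, was 25290 bp from XCR1, the receptor of the chemokine XCL1, and went from 3.46 and 2.94 CPM to 16.8 and 14.3 CPM. These 3 intervals all lay between genes.

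At rank 4 stood an interval 629347 bp from any coding gene end, chr7:67918208-67918496, with 0.823 and 1.32 CPM in the controls, the lowest control mean of all members, and 5.12 and 4.94 CPM in shIRF4. Inside PLEC, which codes for the cytoskeletal linker plectin, an interval at chr8:143928356-143929006 held 4.28 and 4.63 CPM against 16.5 and 16.9 CPM. Its replicates lay close together in both groups, with the controls and the shIRF4 libraries far apart. The interval of USF3 at chr3:113659109-113659699 had 2.47 and 2.13 CPM against 8.58 and 8.45 CPM, and that near CCDC71L at chr7:106718236-106718514 had 1.56 and 1.84 CPM against 6.18 and 6.15 CPM. An interval 144466 bp from the nearest coding gene, chr3:8357022-8357693, had 4.69 and 5.51 CPM against 19.99 and 18.1 CPM, the highest shIRF4 values among the 20 leading members.

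The members ranked 9 to 20 had folds of means between 3.10 and 4.43. They lay in SFMBT2 (a Polycomb-associated gene), CHN2 (a Rac GTPase-activating protein), OTOF (otoferlin of hair cells), VRK2 (a kinase), TPTEP2-CSNK1E, CEP250 (a centrosome protein), SPTLC2 (a subunit of serine palmitoyltransferase), SNX29 and LARS2 (a mitochondrial tRNA synthetase), 7416 bp outside TSPAN33 (a tetraspanin of activated B cells), and at chr2:34997739-34998321 and chr2:17270979-17271297, both more than 100 kb from a coding gene. The shIRF4 replicates differed by the largest ratio in SFMBT2, with 8.02 and 4.72 CPM against 1.48 and 1.40 CPM in the controls. In all 20 the groups were separate, as the rule requires.

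**Figure D2:**
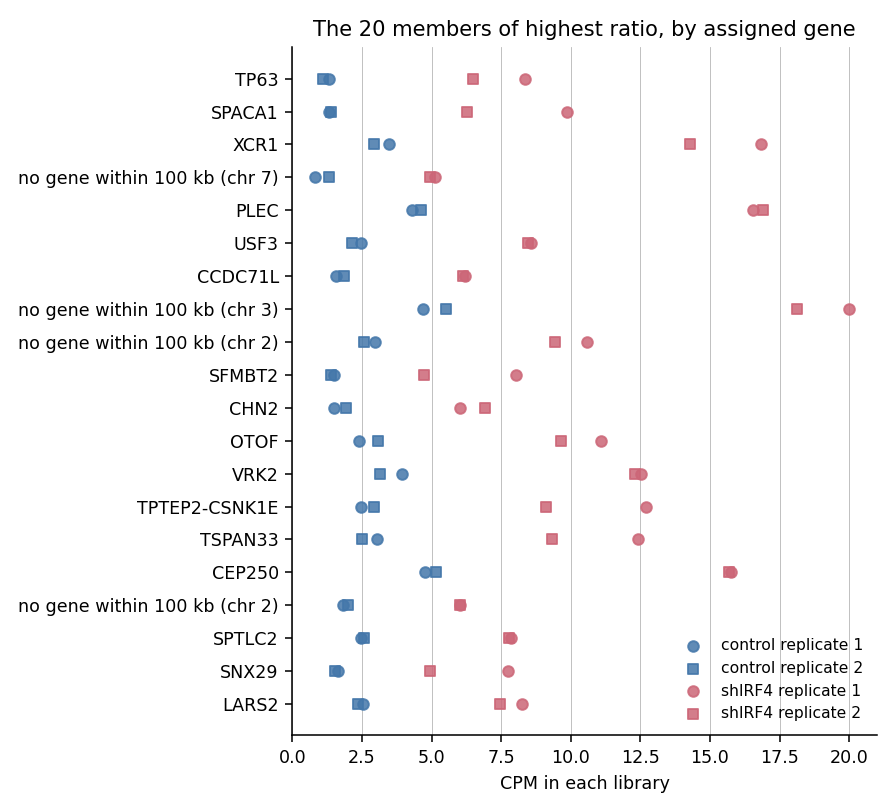
CPM in each of the 4 libraries (horizontal) for the 20 members of highest ratio, named by assigned gene (vertical). Control points lie between 0.823 and 5.51 CPM and shIRF4 points between 4.72 and 19.99 CPM, with no overlap within a row.

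The members of highest level after silencing were mostly wide or already accessible. CPM per interval grows with width, so levels per kb are given beside it. The LY6E interval, chr8:143023916-143027641, is 3726 bp wide, the widest of all members, and lies 3369 bp from LY6E, an interferon-induced surface protein. It held 33.5 and 33.0 CPM in the controls and 81.8 and 71.4 CPM in shIRF4, or 8.92 and 20.6 CPM per kb as group means. The interval inside CACNA1C, a calcium channel subunit, was denser: 20.4 and 22.2 CPM against 47.8 and 51.7 CPM, or 23.4 and 54.6 CPM per kb. Thus per length the CACNA1C interval had the higher density of the pair in both groups.

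Next came an interval 1057 bp from LFNG, a glycosyltransferase that modifies Notch receptors, with 21.5 and 22.8 CPM against 44.2 and 43.1 CPM. The TK2 interval, in the gene of mitochondrial thymidine kinase, held 18.4 and 20.9 CPM against 42.2 and 41.6 CPM. The others of the leading 10 were in or near OAS2, DIAPH1, ABTB2, LNX1, CD96 and SYT1, with shIRF4 libraries between 25.9 and 37.6 CPM. SYT1, a synaptic vesicle protein, had the largest fold of these 10, from 9.87 and 9.26 CPM to 32.2 and 26.01 CPM, a fold of means of 3.04.

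Beside all CPM-filtered intervals the members were narrow, but not at matched control levels, as given below. Their median width was 498 bp, with quartiles of 376.5 and 678.5 bp, against 776 bp for all autosomal intervals that reached the CPM minimum, 554 bp for all autosomal intervals and 521 bp for the strongly closed ones. Only 31 members (6.6%) were wider than 1000 bp, against 35.3% of the CPM-filtered intervals. The widest after LY6E lay near LFNG, with 2122 bp, and BCAS1, with 1808 bp. The narrowest were 175 bp near EOMES, 187 bp in WEE1 and 201 bp at chr1:199021000-199021200.

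Width moved with the control level. Among members with control means from 2 to 4 CPM the median width was 433 bp (257 members), from 4 to 8 CPM 667 bp (121 members) and from 8 to 16 CPM 998 bp (35 members). All other autosomal intervals of these control levels, with no condition on the shIRF4 libraries, had medians of 250 bp, 479 bp and 820 bp. At each of these levels the members were thus the wider. A wider interval gathers more counts and the rule asks for more counts in shIRF4, so these widths are a description.

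Members lay away from gene ends. With the distance taken from the interval's midpoint to the nearest end of a protein-coding gene, 33 members (7.02%) were within 1 kb of an end, 99 (21.1%) between 1 and 10 kb, 249 (52.98%) between 10 and 100 kb and 89 (18.9%) farther. Within 1 kb lay 23.4% of the CPM-filtered autosomal intervals, 17.4% of all autosomal intervals and 2.93% of the strongly closed ones. The median distance was 25535.5 bp in members, 9509 bp in the CPM-filtered intervals and 33599 bp in the strongly closed ones. Starts were read from the promoter table, which holds 15842 of the 20052 coding genes and none on chromosome 8, where 23 members lie. Of the other 447 members, 12 (2.68%) were within 1 kb of a listed start, against 20.2% of the CPM-filtered intervals off that chromosome. Both shares, and the 16 windows shown first, are minimum counts, since OAS2 and OASL, among others, have no start in the table.

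Inside a gene body lay 243 members (51.7%), against 56.7% of the CPM-filtered intervals, and 57 (12.1%) had no coding gene within 100 kb, against 7.86%. Put the other way, 0.293% of the CPM-filtered intervals at gene ends were members, 1.12% of those in gene bodies, 1.19% of those between genes and 1.51% of those more than 100 kb from any coding gene.

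Position also moved with the baseline level. In the range of 2 to 4 CPM in the controls, 13 of 257 members (5.06%) lay within 1 kb of a gene end, against 4.86% of the 17051 other autosomal intervals of that control level, with no condition on the shIRF4 libraries. From 4 to 8 CPM it was 11 of 121 members (9.09%) against 7.08%, and from 8 to 16 CPM 4 of 35 (11.4%) against 15.4%. The median distances were 27221 bp against 25632 bp from 2 to 4 CPM, 20915 bp against 18285 bp from 4 to 8 CPM, and 21881 bp against 11718.5 bp from 8 to 16 CPM. Above 16 CPM there were 7 members, 2 of them at an end.

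**Figure D3:**
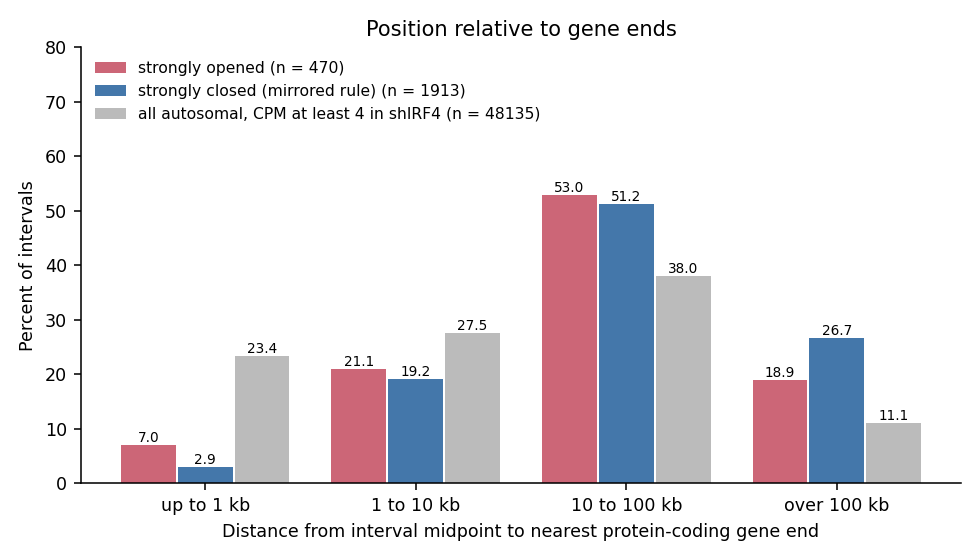
Percent of intervals (vertical) by distance from the midpoint to the nearest protein-coding gene end (horizontal) for the 470 members, the 1913 strongly closed intervals and the 48135 autosomal intervals with at least 4 CPM in both shIRF4 libraries. Members within 1 kb are 7.0% against 23.4% of all, and 52.98% of members lie at 10 to 100 kb.

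The gene-end members included several interferon-induced genes. The interval over the IFIT3 start, chr10:89327754-89328376, whose sequence is shown above, held 1.73 and 2.28 CPM in the controls and 6.79 and 6.25 CPM in shIRF4, a log2 difference of 1.66 ± 0.21 (SE) and the highest ratio, 2.75, among the 33. At an end of OAS2, an enzyme that activates RNA decay on viral RNA, chr12:112977844-112979559 held 17.9 and 18.5 CPM against 37.6 and 36.1 CPM. At an end of its relative OASL, chr12:121038580-121039358 held 5.35 and 7.57 CPM against 13.6 and 13.3 CPM. IFIT3 and OAS2 each had 1 of 3 tested intervals called higher and 1 lower, and OASL had 1 of 3 higher and 0 lower. In each of these 3 intervals the shIRF4 replicates were closer to each other than to either control. The rule already requires the groups to be separate, so this is a description.

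Other gene-end members with high ratios were at EGR1, an immediate-early zinc finger factor, with 3.95 and 3.97 CPM against 10.5 and 14.8 CPM, and at SH2D2A, a T cell adaptor, with 2.72 and 3.89 CPM against 10.1 and 10.97 CPM. SLFN5, a Schlafen family gene, had 1.89 and 2.35 CPM against 6.29 and 5.93 CPM. The member in PPAN, a ribosome biogenesis gene, covers the start of P2RY11, an ATP receptor, and held 4.77 and 3.45 CPM against 11.6 and 11.3 CPM. All 4 lay within 1 kb of a gene end by their midpoint, but the EGR1 interval was 4428 bp from an annotated EGR1 start. EGR1 had 3 of 3 tested intervals called higher, SH2D2A 1 of 3 with 2 lower, and SLFN5 and PPAN 1 of 1 each.

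The interval over the IL10 start, chr1:206772263-206772851, falls within the body of IL19 and held 4.28 and 4.70 CPM against 10.6 and 8.998 CPM. A second member inside IL19, 20915 bp from the IL10 start, held 5.68 and 4.19 CPM against 12.6 and 10.6 CPM. At LAX1, an adaptor that dampens lymphocyte receptor signalling, the values were 3.21 and 3.67 CPM against 6.57 and 7.24 CPM. The other gene-end members in the upper 30 by ratio were at MCC, RRP12, MILR1, CEP85L, TPRG1, SLC2A3, C16orf54, STK16, CPAP, CNP, KREMEN1, LZTFL1, PTPRN, WBP1L, MT2A, ATG13, FBXO21, DIAPH1, ZFP36L1, NLRP1 and 1 gene with no symbol. Over the 33, the fold of means ran from 1.77 to 3.26 with a median of 2.15.

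Intervals were assigned to the coding gene whose body held the midpoint, or else to the nearest within 100 kb, and gene lists were read on that basis. An assigned gene is the nearest one, not a shown target. Over all 71253 autosomal tested intervals, 470 (0.660%) were members, 7.27% were called higher and 15.6% lower, with a median log2 difference of 0.01. The interferon response list had 9 members among 178 tested intervals (5.06%), with 41 called higher, 34 lower and a median of 0.11. The 9 members belong to 7 genes: IFIT3, OAS2, OASL and LY6E, given above, and SP100, IFI16 and MX1.

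SP100, a nuclear body protein, held 2.06 and 1.91 CPM against 5.90 and 7.35 CPM inside the gene. IFI16, a sensor of DNA, had 2 members, chr1:159008838-159009117 with 2.63 and 3.16 CPM against 6.02 and 5.82 CPM, and chr1:159009757-159010300, over the start shown above, with 3.62 and 3.82 CPM against 7.85 and 8.12 CPM. MX1, a GTPase that blocks viruses, had 1 member over the start shown above, with 4.03 and 3.67 CPM against 8.02 and 7.68 CPM, and 1 at 1236 bp outside the gene, with 5.84 and 7.42 CPM against 13.3 and 15.9 CPM. The members of this list had folds of means between 2.02 and 3.34. Of 16 tested intervals of SP100, 4 were called higher and 6 lower, and of 5 of IFI16, 2 higher and 1 lower. MX1 had 4 of 5 higher and LY6E 3 of 6, with 0 lower in both. With 34 of its intervals lower, the list as a whole was mixed.

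Receptors for cytokines, chemokines and adhesion had 8 members among 334 tested intervals (2.40%), with 50 called higher and 51 lower. CCR7, which guides lymphocytes into lymph nodes, had 2, with 5.10 and 4.78 CPM against 10.6 and 10.3 CPM, and 11.3 and 9.85 CPM against 27.6 and 22.3 CPM. CXCR5, the receptor that guides B cells into follicles, had 2.80 and 3.09 CPM against 6.63 and 5.38 CPM. S1PR1, needed for exit from lymphoid organs, had 1.65 and 2.13 CPM against 4.40 and 4.39 CPM at 99447 bp from the gene. All 4 intervals lay between genes.

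Among the cytokine receptors, the interval in IFNAR2, a chain of the type I interferon receptor, had 1.89 and 1.76 CPM against 4.01 and 5.71 CPM. IL21R had 1.97 and 2.94 CPM against 5.24 and 5.05 CPM. Near IL4R the values were 5.68 and 5.66 CPM against 9.75 and 9.77 CPM, a log2 difference of 0.73 ± 0.15 (SE), the lowest of all members. XCR1, given above, completes the list.

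B cell identity and receptor signalling genes had 9 members among 650 tested intervals (1.38%), with 65 called higher and 139 lower. FCRL3, an Fc receptor-like protein, had 2.47 and 2.35 CPM against 10.3 and 6.47 CPM, and RUNX1, a haematopoietic factor, 1.89 and 1.84 CPM against 4.46 and 4.39 CPM. LAPTM5, a lysosomal protein that lowers surface B cell receptor, had 3.79 and 3.89 CPM against 9.30 and 8.998 CPM. PIK3AP1, the adaptor that links the receptor to PI3-kinase, had 6.42 and 6.54 CPM against 16.3 and 13.2 CPM. VAV3, a guanine nucleotide exchange factor, had 1.97 and 2.72 CPM against 6.57 and 6.25 CPM. TSPAN33 is given above, and EBF1 had 3 members, described with its locus below. Higher and lower calls numbered 1 and 5 in VAV3, 3 and 2 in RUNX1 and 3 and 3 in PIK3AP1. FCRL3, LAPTM5 and TSPAN33 each had 2 higher and 0 lower.

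In the germinal centre list 3 of 307 tested intervals were members (0.977%), with 55 called higher and 38 lower. They lay near IRF8, an IRF family factor of germinal centre B cells, with 2.22 and 2.42 CPM against 4.68 and 5.27 CPM, in ITPKB, an inositol kinase, with 8.72 and 9.33 CPM against 20.7 and 16.8 CPM, and near CXCR5. The activated B cell-like lymphoma list had 2 members among 403 (0.496%), with 27 called higher and 101 lower. One of them lay over a start of ENTPD1, an ectonucleotidase, with 2.47 and 3.38 CPM against 6.18 and 5.82 CPM. Of 22 tested intervals of ENTPD1, 2 were called higher and 7 lower. IL10 is also on this list, but the member over its start is not counted there, because its midpoint falls within IL19. The plasma cell list had no member among 97, with 4 called higher and 29 lower.

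Actin, adhesion and cytoskeleton genes had 6 members among 460 tested intervals (1.30%), with 47 called higher and 75 lower. Beside PLEC they included DIAPH1, an actin-nucleating formin, with 15.7 and 18.2 CPM against 35.5 and 31.6 CPM. ARHGAP24, a GTPase-activating protein, had 1.23 and 1.76 CPM against 4.46 and 4.17 CPM. MYO9B, an unconventional myosin, had 2.22 and 2.57 CPM against 5.07 and 4.50 CPM. Of 32 tested intervals of ARHGAP24, 2 were called higher and 10 lower. Higher and lower calls numbered 4 and 1 in PLEC, 3 and 0 in DIAPH1 and 3 and 2 in MYO9B. The cell death and p53 list had 1 member among 225, with 15 called higher and 48 lower. Among markers of other cell types, 1 of 39 intervals of the dendritic list was a member (XCR1), with 2 called higher and 12 lower. XCR1 itself had 2 of 11 tested intervals called higher and 3 lower. In the NK list 1 of 10 was a member, with 1 called higher and 1 lower (PRF1, perforin, with 3.04 and 3.38 CPM against 5.85 and 5.93 CPM). None of 39 T cell, 19 myeloid and 32 epithelial or fibroblast intervals was a member, with 5, 2 and 4 called higher and 7, 2 and 3 lower.

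Intervals close to members tended to be higher as well. Of 89 other tested intervals within 2 kb of a member, midpoint to midpoint, 40 were called higher (44.9%) and 1 lower, with a median log2 difference of 0.43. From 2 to 10 kb it was 101 of 469 higher (21.5%) and 38 lower (8.10%), with a median of 0.18. From 10 to 50 kb it was 254 of 1974 (12.9%) and 206 (10.4%), with a median of 0.08. All other autosomal intervals stood at 6.66% higher and 15.7% lower, so the share called higher fell with distance toward that background. These calls come from the same contrast as the rule and are a description. Over the whole 50 kb, 15.6% of 2532 intervals were called higher. DESeq2 called 2.49% there against 1.17% of all intervals. Without control replicate 1, control replicate 2 or shIRF4 replicate 1, edgeR called 9.08%, 8.73% and 6.95% there against 3.95%, 3.88% and 3.58% of all.

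Around the strongly closed intervals the calls leaned the other way, with 203 of 453 intervals within 2 kb called lower (44.8%) and 5 higher (1.10%). The background is not symmetric: 15.7% of all autosomal intervals other than members were called lower and 6.66% higher. The 44.8% thus stood less far above its background than the share called higher near members. For single members the surroundings varied. Of the 470, 174 had at least 1 adjoining interval within 50 kb on either side called higher, and 34 had both. For 38 at least 1 was called lower, for 232 none of those present was called, and 30 had no other interval within 50 kb. Adjoining members count as higher here, and 67 members lay within 50 kb of another, so the choice fixes part of these counts. Over all autosomal tested intervals 7.27% were called higher and 15.6% lower. The same counts around other intervals are not given, so these are a description. The nearest other interval was a median of 7208 bp away, against 4254 bp for the CPM-filtered intervals.

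**Figure D4:**
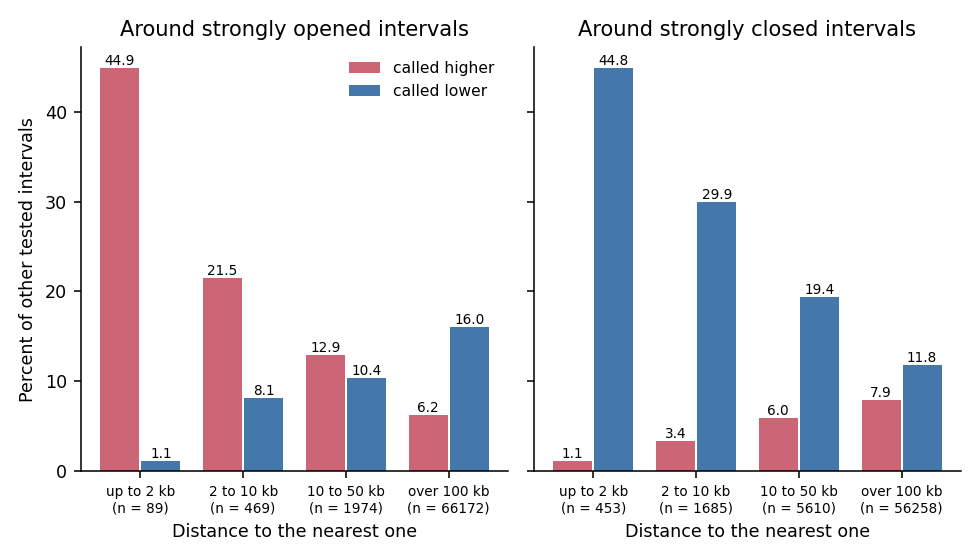
Percent of other tested intervals called higher or lower in shIRF4 (vertical) by distance to the nearest strongly opened (left) or strongly closed (right) interval (horizontal). Within 2 kb, 44.9% are called higher around members and 44.8% lower around strongly closed intervals. Over 100 kb from members 6.22% are called higher, and over 100 kb from strongly closed intervals 11.8% are called lower.

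A strongly closed interval lay within 50 kb of 35 members and within 10 kb of 6, among them those at PPCDC, CNP, RNF150, EXOC2 and SUSD1. In PPCDC, which codes for an enzyme of coenzyme A synthesis, the member held 3.70 and 3.89 CPM in the controls and 7.69 and 7.35 CPM in shIRF4, and the closed interval 7829 bp away went from a mean of 6.01 CPM to 1.30 CPM. At RNF150 the member went from a mean of 2.96 CPM to 8.79 CPM and the closed interval 7509 bp away from 6.87 CPM to 2.02 CPM. At EXOC2, an exocyst subunit, the means were 6.13 and 11.3 CPM for the member and 13.4 and 4.48 CPM for the closed interval 6069 bp away. Opposite differences thus occurred within a few kilobases in 6 places.

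Of the 470 members, 67 (14.3%) lay within 50 kb of another member, against 616 of the 1913 strongly closed intervals (32.2%), which are more numerous. The 67 fell into 26 pairs and 5 groups of 3. The groups of 3 were at UBXN11, at SUSD1, in EBF1 and in 2 stretches far from coding genes, chr7:13411719-13467541 and chr20:53706533-53729932. The pairs with the highest ratios were at SNX29, MND1, NUP160, ATP2B1, NR5A2 and QSOX2 and at chr2:234308525-234336210. In the chromosome 7 stretch the member at chr7:13457808-13458313, 433169 bp from a coding gene, held 9.13 and 9.11 CPM against 19.7 and 17.6 CPM.

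Of the 5 groups of 3, the one in UBXN11, a UBX-domain gene on chromosome 1, was the shortest, and its members spanned 4076 bp between midpoints. The strongest, chr1:26288581-26289744, held 6.58 and 6.17 CPM against 23.2 and 17.8 CPM. The other two held 3.62 and 3.67 CPM against 9.58 and 7.02 CPM, and 2.47 and 1.91 CPM against 5.90 and 5.05 CPM. Of the 5 tested intervals of the gene, the 3 members and 1 more were called higher and 1 was not called, with 11.8 and 12.1 CPM against 13.3 and 11.1 CPM.

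SUSD1, on chromosome 9, showed a change of direction over a short distance. The member at chr9:112037514-112038544 held 4.94 and 5.95 CPM against 16.1 and 13.6 CPM, and its neighbour at chr9:112035777-112036589 held 4.61 and 6.83 CPM against 11.9 and 9.88 CPM. The strongly closed interval at chr9:112031511-112032577 held 15.6 and 13.4 CPM against 7.52 and 7.46 CPM. Of 16 tested intervals of the gene, 5 were called higher and 1 lower.

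EBF1, on chromosome 5, codes for a factor that specifies the B cell fate. All 3 members lay in its body, at chr5:158775231-158775778 with 5.43 and 6.25 CPM against 11.8 and 10.8 CPM, at chr5:158812091-158812742 with 5.35 and 4.26 CPM against 15.2 and 10.3 CPM, and at chr5:158820007-158820720 with 4.20 and 3.601 CPM against 8.41 and 7.68 CPM. The 6 intervals from 158775231 to 158848164 were all called higher, with log2 differences of 0.69 to 1.43. The interval at chr5:158884596-158885808 farther along was called lower, with 30.8 and 29.6 CPM against 13.0 and 13.1 CPM, a log2 difference of -1.26 ± 0.09 (SE). Of 38 tested intervals of the gene, 10 were higher and 5 lower, and those around the gene's start were not called.

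SNX29, a sorting nexin gene on chromosome 16, had a similar run. From chr16:12120242 to 12148089 all 5 intervals were called higher, among them the members with 4.61 and 4.78 CPM against 13.5 and 9.44 CPM and with 1.65 and 1.54 CPM against 7.74 and 4.94 CPM. Farther along the gene, chr16:12295578-12295763 was called lower, with 3.46 and 3.31 CPM against 1.504 and 1.32 CPM. Of its 31 tested intervals, 7 were higher and 6 lower. In MND1, a meiotic recombination gene, 3 of 8 intervals were called higher, and the interval of highest level, with 34.1 and 32.7 CPM against 37.2 and 36.2 CPM, was not called.

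**Figure D5:**
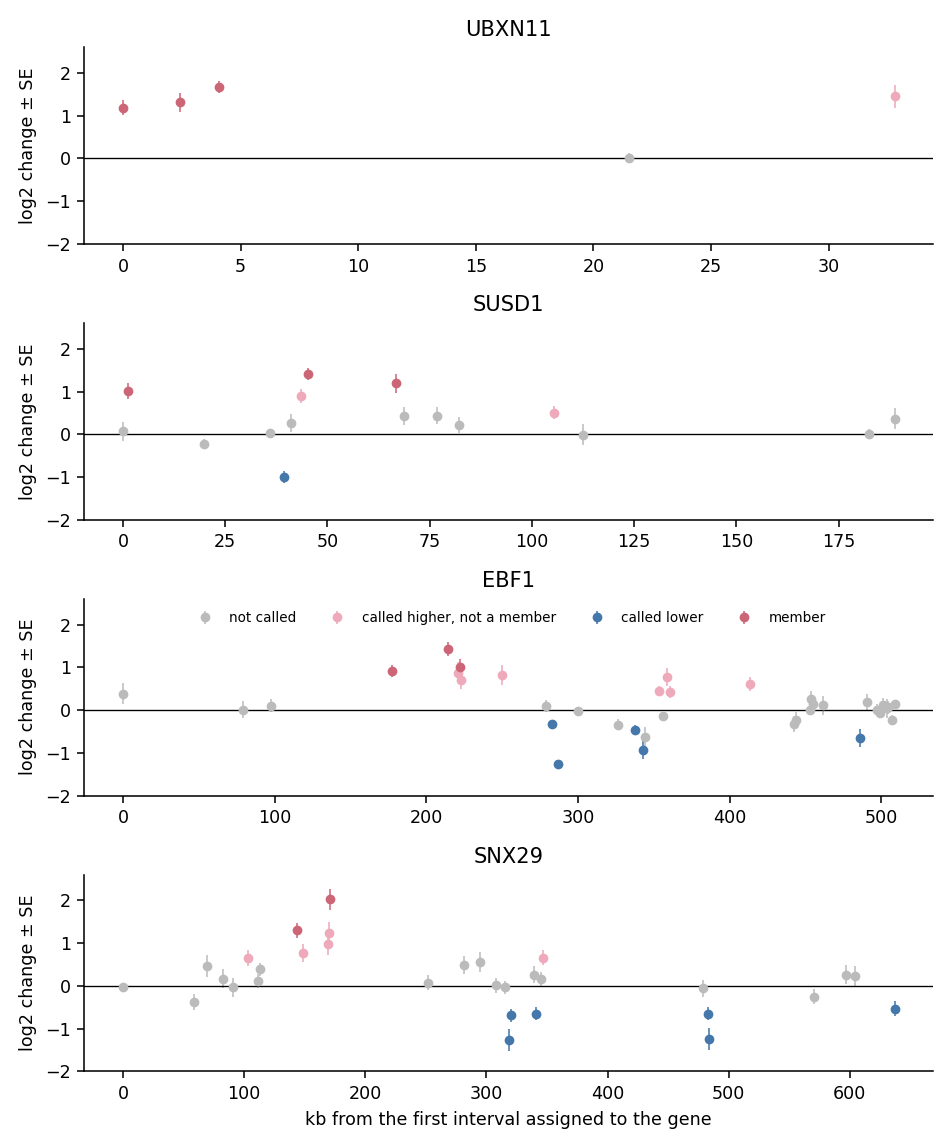
Log2 difference, shIRF4 minus control, with its SE (vertical) for each tested interval assigned to UBXN11, SUSD1, EBF1 and SNX29, by distance in kb from the first of them (horizontal). Members are dark red, other intervals called higher light red, those called lower blue and uncalled ones grey; in EBF1 the 6 intervals of the first called run lie at 0.69 to 1.43 and the lowest at -1.26.

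Across genes, 379 coding genes with a symbol held members, 27 of them 2 or more. The other 3028 tested intervals of these genes had 434 called higher (14.3%) and 377 lower (12.5%), beside 7.26% and 15.5% over all intervals. In 149 of the genes at least 1 interval was called lower, and in 15 the member was the only tested interval. Members were a small share of what was called: of 5182 autosomal intervals called higher, 470 (9.07%) met the rule. The others had a median log2 difference of 0.64, a median control level of 4.60 CPM, a median width of 513.5 bp and 12.1% within 1 kb of a gene end.

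By chromosome, members were 1.71% of the CPM-filtered intervals on chromosome 20 (23 members) and 1.45% on chromosome 7 (34 members). On chromosome 19, a gene-dense chromosome, they were 0.22% (10 of 4549), where the median log2 difference of all tested intervals was -0.16. The remaining autosomes lay between 0.619% and 1.38%. Strongly closed intervals were also few on chromosome 19, 30 of its 5460 intervals, against 1913 of 71357 on all autosomes. The 10 members on chromosome 19 had folds of means between 1.89 and 2.79, led by the PPAN interval. A single member, chr6:2853778-2854217, covered an annotated microRNA hairpin, MIR4645, and held 1.97 and 2.42 CPM against 4.23 and 4.39 CPM.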

How the data were processed

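ATAC-seq was done in TMD8 cells, 2 control and 2 shIRF4 libraries. The authors deposited whole-number counts per interval, made with featureCounts 2.0.0 per the file headers, which counted read 5′ ends over 1 shared list of peaks, left out reads marked as duplicates and asked for fractional weights of multi-mapping reads. All deposited values are whole. Coordinates are on hg38, as the submitters' processing notes name it. How reads were aligned, how peaks were called and whether cut sites were shifted is not given in the sources used here. CPM was computed from each library's total. The 4 libraries were fitted with edgeR 4.0.16 in R 4.3.3 (TMM scaling, filterByExpr, quasi-likelihood F-test, two-sided, Benjamini-Hochberg over 73028 intervals, threshold 0.05), after a check on simulated data. DESeq2 1.42.0, other thresholds, other scalings and each library left out were alternatives.

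Genes came from RefSeq GRCh38.p14 (20052 coding genes), a patch release of the same assembly. No genome sequence was used here, so sequence was read only at starts in a RefSeq promoter table, which holds 15842 of the coding genes and none on chromosome 8. The members and gene lists were chosen with earlier results of these data known. Members were named by rank (the 20 highest ratios, the 10 highest shIRF4 levels, the extremes of control level and width, the threshold edges), by groups within 50 kb, by gene lists and by position at gene ends. Some members that this rule names are not reported here. Members' differences carry no test.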

Additional observations from a re-analysis of the deposited data

How the results depend on the processing

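The number of members followed its thresholds: 854 at a CPM minimum of 2, 180 at 8, 1009 at a ratio above 1.5 and 182 above 2. Leaving out 1 library relaxed the rule and gave 764 to 1363: 790 and 904 without control replicates 1 and 2, and 764 and 1363 without shIRF4 replicates 1 and 2. All 470 were kept in each, while TMM-scaled sizes kept 393 of the 470 and DESeq2 size factors 404. Calls higher over all intervals were 5301, but 856 with DESeq2 and 2614 to 6880 without 1 library (2889 and 2835 without control replicates 1 and 2, 2614 without shIRF4 replicate 1). With library totals as the only scaling, 7181 were higher and 9926 lower (5301 and 11338 with TMM), and the median of all log2 differences moved from 0.01 to 0.06. Of the members, DESeq2 called 356, and 456 to 470 were called without 1 library. Of the intervals within 50 kb, 15.6% were called higher, but 2.49% with DESeq2, 6.95 to 18.0% without 1 library (least without shIRF4 replicate 1) and 25.3% within 10 kb.

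The share within 1 kb of a gene end was 12.8% with genes of every type, 10.6% at a CPM minimum of 8 and 10% with a 2 kb window. The median distance was 9983 bp with genes of every type, 22057 bp at a CPM minimum of 8 and 31126.5 bp at a ratio above 2. The share in gene bodies was 61.9% with genes of every type and 46.7% at a ratio above 2. At a CPM minimum of 8 the median width was 710.5 bp and the median control level 5.39 CPM, which was 2.58 CPM at a ratio above 2 and 3.13 CPM with TMM-scaled sizes. The number of members changes with the thresholds by construction. The causes of the other shifts, those with DESeq2 among them, were not tested.

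With the replicate number as a block, 5210 intervals were called higher, all 470 members among them, and 15.3% of intervals within 50 kb. The replicate differences of the groups had a correlation of -0.026 over 73028 intervals, so the numbers were not taken as pairs. The shallowest library, with 9112860 counts, had as few as 37 counts in a member.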

Other observations

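On chromosome X, which the rule leaves out, 15 intervals met the same thresholds. At CD99, a surface protein encoded in the pseudoautosomal region, there were 3, of which chrX:2707056-2708465 held 17.4 and 18.5 CPM in the controls and 42.7 and 34.6 CPM in shIRF4. Inside or near KLF8, a Krüppel-like factor, there were 2, of which chrX:56066027-56066589 held 3.79 and 3.89 CPM against 10.6 and 11.7 CPM. At MSN, which codes for moesin, a linker of actin to the membrane, chrX:65697934-65698796 held 6.01 and 6.32 CPM against 18.4 and 15.9 CPM. At CASK, a scaffold kinase, chrX:41720197-41720615 had the highest ratio of the 15, 2.73, with 1.89 and 2.13 CPM against 6.57 and 5.82 CPM. These intervals were chosen by the same values and carry no test.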
